A study of Mus musculus with 8 samples.

Results

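The genes described here are the mouse zinc finger genes with symbols from Zfp900 to Zfp999, followed across 3 groups of E14 embryonic stem cells. They were chosen by symbol and by read depth: a gene was taken when at least 10 reads were counted in at least 2 of the 6 libraries used. Of 64 such symbols in the count table of 55292 features, 54 met the rule, and these 54 are called the members. The set was chosen with earlier results of these data known. The groups were, each with 2 libraries, the lncSmad7-/- knockout labelled as transfected with Smad7, with 24 h named in its description; the untransfected lncSmad7-/- knockout; and wild-type cells. All were cultured on gelatin in serum with leukaemia inhibitory factor (LIF), and poly(A)-selected RNA was sequenced. lncSmad7 is a long noncoding RNA, and Smad7 is an inhibitor of TGF-beta superfamily signalling. The sources used here do not give the number of knockout clones. The replicates are called biological, but separate cultures are not mentioned, and p-values therefore reflect variation between these libraries that may be technical.

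Most genes of this kind encode proteins with an N-terminal KRAB domain and an array of C2H2 zinc fingers. The fingers bind DNA, often within retrotransposons, and the KRAB domain recruits the corepressor Trim28 (KAP1), which brings in the histone H3 lysine 9 methyltransferase Setdb1, HP1 proteins and histone deacetylases. In embryonic stem cells this pathway keeps endogenous retroviruses silent. The genes arose by local duplication and lie in clusters, several of them found only in rodents. The clusters are themselves packaged in heterochromatin that Trim28, Atrx and other factors bind. Neighbouring fingers are joined by a short conserved linker. The degenerate stretch that encodes it, ACNGGNGANAANCC, occurred at least once on the sense strand of the longest transcript in 51 of 54 members and at least 5 times in 40, against 2.46% and 1.18% of 21507 protein-coding genes. The 3 members without this stretch were Zfp972, Zfp931 and Zfp950.

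Total counts were 13392941 and 15972163 in the libraries of the labelled Smad7-transfected knockout, 20159897 and 19455030 in the knockout, and 19260386 and 20209760 in wild type. Smad7 averaged 96.6 ± 3.9 CPM (counts scaled to library size with TMM factors; SD, n = 2) in the libraries labelled Smad7-transfected, 72.5 ± 4.2 CPM in the knockout and 97.6 ± 0.048 CPM in wild type. The lncSmad7 feature averaged 10.99 ± 0.30, 6.33 ± 1.1 and 13.2 ± 1.1 CPM in the same order, so lncSmad7 also stood higher in the libraries that the label ties to Smad7. They are therefore called labelled Smad7-transfected knockout throughout, and results on them depend on that label. The sources used here do not place the lncSmad7 feature relative to the deletion, so its remaining reads do not check the deletion. Embryonic stem cell markers summed to 4385 and 4370 CPM in the labelled Smad7-transfected knockout, 6580 and 6676 CPM in the knockout, and 4850 and 4926 CPM in wild type, with none of 8 at 0. The 7 primitive endoderm markers summed to 10.1 and 10.9, 7.85 and 6.89, and 92.1 and 88.4 CPM, and the 4 Y-linked genes Ddx3y, Eif2s3y, Uty and Kdm5d to 158 and 187, 95 and 78, and 2023 and 2229 counts. The 5 trophectoderm markers summed to 14.1 and 13.8, 12.1 and 10.8, and 36.04 and 31.8 CPM. The 6 fibroblast and feeder markers summed to 8.58 and 8.76, 6.17 and 5.52, and 4.54 and 5.65 CPM, and the 7 of 8 markers of 2-cell-like cells found in the table summed to at most 0.316 CPM in any library. In these marker lists too no gene was at 0 in all 6 libraries. The mitochondrial share of counts was 2.48% and 2.33% in the labelled Smad7-transfected knockout, 1.40% and 1.37% in the knockout, and 1.58% and 1.53% in wild type. TMM factors were 1.16 and 1.16, 0.974 and 0.978, and 0.881 and 0.886, and 26358 and 27359, 24849 and 24777, and 24446 and 24671 features had a count, in the same order of groups. These differences between the groups run beside every comparison below, and their part in the member results was not tested. Fewer cells of a type and less RNA per cell cannot be told apart in bulk RNA.

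The members lie on 11 chromosomes in the GENCODE M21 annotation of GRCm38. Chained where neighbouring starts lay within 1000000 bases, 35 of 54 fell into 5 clusters of at least 3. The largest held 14 members at chromosome 4, 145510759 to 147848366. The next held 10 at chromosome 17, 21567008 to 22867134, and clusters of 4 lay at chromosome 2, 177464733 to 178078476, and at chromosome 7, 42579783 to 43192109. The remaining cluster of 3, Zfp930, Zfp964 and Zfp963, lay at chromosome 8, 69209038 to 69749970. RefSeq start regions on GRCm38.p6, from 250 bases before to 50 bases after the annotated start, matched 46 members by symbol. No such sequence was matched for Zfp990, Zfp992, Zfp989, Zfp978, Zfp960, Zfp930, Zfp991 and Zfp934.

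The sequences just upstream of the starts are shown for a choice of members, so that lines can be compared within and between clusters. Not all members with large changes are among them. Each line is 150 bases read 5′ to 3′ on the strand of the gene, and ends at the base before the RefSeq start. Capitals mark matches on either strand to TAATTAATTAA, ATTGGGCGGG or CCAATCA.
Zfp985 (chr4:147553127-147553276, plus strand): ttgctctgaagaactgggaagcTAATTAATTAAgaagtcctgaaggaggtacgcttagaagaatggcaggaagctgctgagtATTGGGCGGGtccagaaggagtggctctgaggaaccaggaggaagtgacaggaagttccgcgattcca
Zfp979 (chr4:147642509-147642658, minus strand): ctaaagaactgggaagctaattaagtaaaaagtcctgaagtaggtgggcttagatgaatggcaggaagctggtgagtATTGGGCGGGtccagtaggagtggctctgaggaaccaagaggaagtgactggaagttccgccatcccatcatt
Zfp980 (chr4:145670547-145670696, plus strand): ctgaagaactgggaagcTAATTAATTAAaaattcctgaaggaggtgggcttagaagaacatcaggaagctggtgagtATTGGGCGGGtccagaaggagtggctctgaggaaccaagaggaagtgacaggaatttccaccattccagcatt
Zfp945 (chr17:22867135-22867284, minus strand): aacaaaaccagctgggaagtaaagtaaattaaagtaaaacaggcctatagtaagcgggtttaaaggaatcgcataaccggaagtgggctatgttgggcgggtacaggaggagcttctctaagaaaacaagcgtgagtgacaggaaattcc
Zfp994 (chr17:22225615-22225764, minus strand): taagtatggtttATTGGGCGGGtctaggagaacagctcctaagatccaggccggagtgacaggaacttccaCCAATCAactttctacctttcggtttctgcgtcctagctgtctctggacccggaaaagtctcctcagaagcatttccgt
Zfp970 (chr2:177464592-177464741, plus strand): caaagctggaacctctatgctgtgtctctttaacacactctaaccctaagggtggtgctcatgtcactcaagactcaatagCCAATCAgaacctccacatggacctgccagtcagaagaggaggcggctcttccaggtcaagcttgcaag
Zfp971 (chr2:178023134-178023283, plus strand): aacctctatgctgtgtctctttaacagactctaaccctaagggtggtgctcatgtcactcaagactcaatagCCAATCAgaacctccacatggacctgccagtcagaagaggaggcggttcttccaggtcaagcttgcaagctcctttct
Zfp977 (chr7:42592546-42592695, minus strand): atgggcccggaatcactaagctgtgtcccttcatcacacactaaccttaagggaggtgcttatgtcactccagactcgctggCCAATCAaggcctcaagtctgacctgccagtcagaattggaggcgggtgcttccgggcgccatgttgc
Zfp941 (chr7:140822179-140822328, minus strand): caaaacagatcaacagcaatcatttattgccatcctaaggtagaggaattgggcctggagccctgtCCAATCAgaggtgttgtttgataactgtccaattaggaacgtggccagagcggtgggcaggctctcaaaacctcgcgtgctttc

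The stretch ATTGGGCGGG was found in 7 of 9 matched start regions of the chromosome 4 cluster and in 2 of 10 of the chromosome 17 cluster, against 0.119% of all 32851 start regions in the table. TAATTAATTAA was found in 6 of 9 on chromosome 4, in no other matched member, and in 0.0609% of all. CCAATCA was in 4 of 4 in the chromosome 2 cluster, 4 of 4 in the chromosome 7 cluster and 24 of 46 members in all, against 7.82% of the table. GGGCGG, which lies inside ATTGGGCGGG, was in 19 of 46 members and 35.7% of the table. The stretches were chosen from the members' own start regions, so these counts describe shared letters and not a site. The identity of 300-base start regions had a median of 86.3% over 36 pairs of the chromosome 4 cluster (57.1% to 96.2%). It was 89.96% over 6 pairs in the chromosome 7 cluster and 87.3% over 6 pairs in the chromosome 2 cluster. In the chromosome 17 cluster it was 63.3% over 45 pairs (53.0% to 99.6%). Over the 942 remaining pairs of matched members, which include Zfp964 and Zfp963 of the same cluster, it was 59.9% (49.6% to 79.6%). By median, the chromosome 17 pairs were thus little above these remaining pairs, while the chromosome 2, 4 and 7 clusters stood well above them. Some chromosome 17 pairs were closely alike, such as Zfp942 and Zfp944 (99.6%) and Zfp995 and Zfp947 (95.3%, over 86 aligned bases). The chromosome 17 genes were not compared separately with members outside their cluster.

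Knockout against wild type compares, by label, untransfected stem cells of the 2 genotypes. The groups also differ in Y-linked counts and primitive endoderm markers, as given above, and the number of knockout clones is not known. Loss of lncSmad7 cannot be told apart from such differences here. Of 54 members, 45 were lower in the knockout by edgeR's quasi-likelihood test (adjusted p under 0.05), 5 were higher and 4 did not pass. Over all 17342 genes tested 33.3% were lower and 34.5% higher. The median log2 fold of the members was −1.52, against 0.02 for all genes tested. The members' CPM summed to 650 and 606 in the knockout libraries, against 1884 and 1749 in the wild-type libraries. Of the 54, 39 were lower by at least 1 on the log2 scale, a fall that 8.74% of all genes showed, and 1 was higher by that much (14.2% of all genes). The 2 libraries of the knockout and the 2 of wild type did not overlap in 50 members, and neither did they in 82.5% of all genes tested. All 54 members had passed the filter on low counts, and Zfp951 was the only 1 of them with at least 10 reads in both libraries of just 1 group, wild type.

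GC content moved with these falls. The longest transcripts of the members had a median GC content of 38.5% (33.2% in Zfp931 to 53.9% in Zfp956), against 49.7% for 16915 other genes tested. Other genes below 36% GC had a median log2 fold of −0.86 (172 genes), against −2.12 in the 9 members there. From 36% to 38% the medians were −0.89 in 299 other genes and −1.71 in 16 members, and from 38% to 40% they were −0.61 in 648 and −1.34 in 12. From 40% to 42% they were −0.39 in 1038 other genes and −1.84 in 6 members. From 42% to 46% they were −0.14 in 2961 other genes and 0.25 in 8 members, 4 of which rose. With offsets fitted in each library to GC content and length of the transcripts, 39 members were lower and 6 higher. Of all 17342 genes tested, 6724 were lower and 4993 higher with the offsets. The median of the members was −0.89, against −0.08 for all genes. The fall of the members was thus smaller with the offsets, by 0.63 on the log2 scale, and kept its direction.

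**Figure D1:**
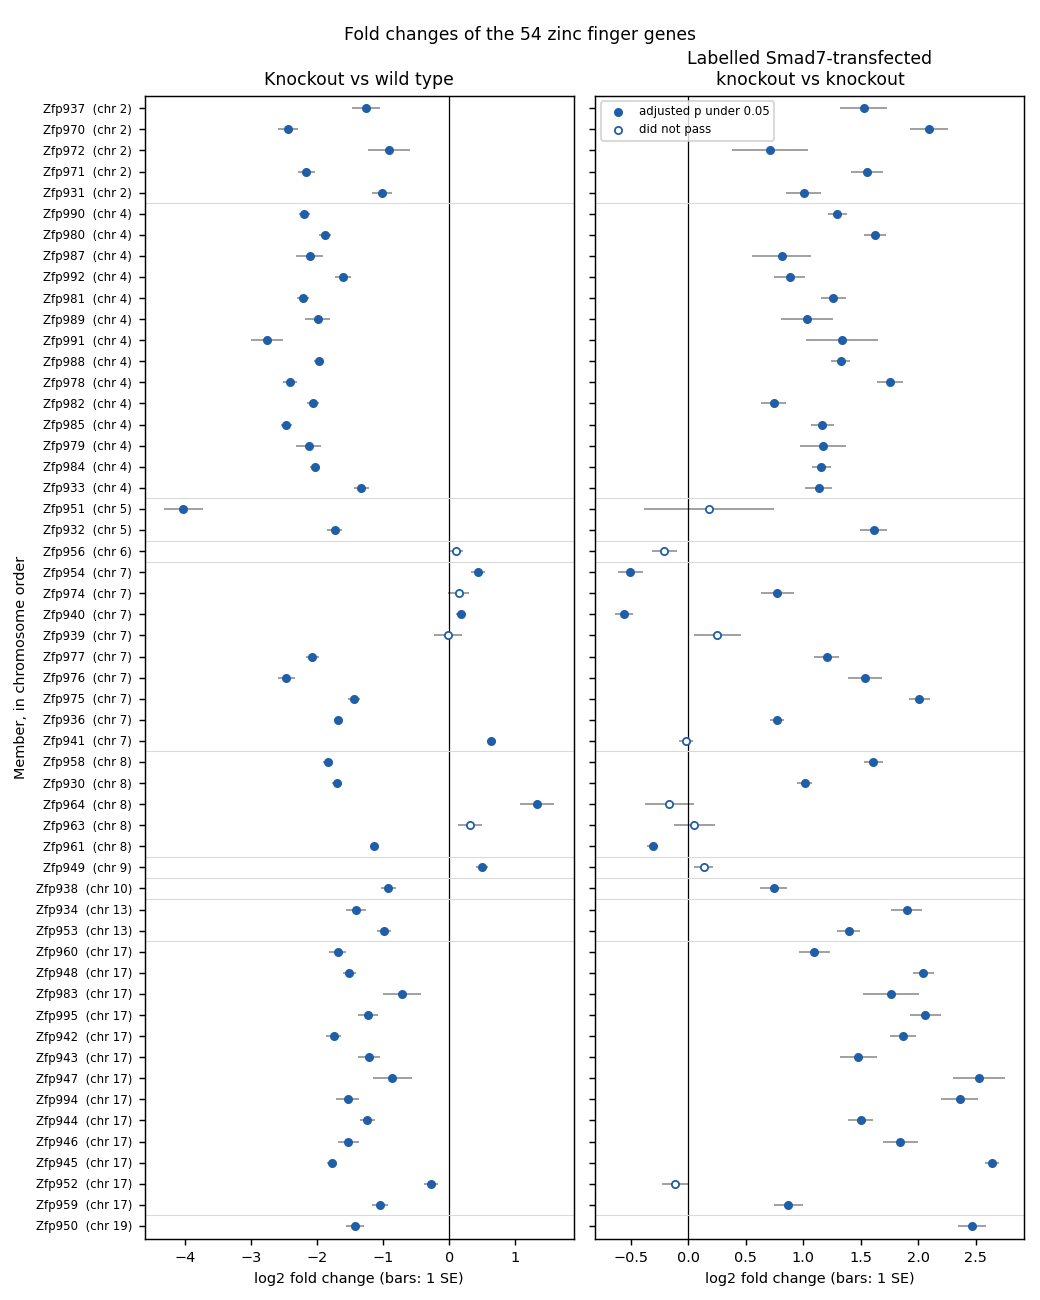
Log2 fold changes (x axis, bars 1 SE) of the 54 members in chromosome order (y axis), knockout over wild type on the left and labelled Smad7-transfected knockout over knockout on the right. Filled points passed adjusted p under 0.05; 45 lie left of 0 and pass in the left panel, and 43 lie right of 0 and pass in the right panel.

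The chromosome 4 cluster fell as a block in the knockout. All 14 members were lower, with log2 folds from −2.76 to −1.33 and a median of −2.09, against 0.07 for 1047 other genes tested on that chromosome. Zfp990 had the highest level per length of all members, 52.2 CPM per kb of exon over the 6 libraries. It stood at 73.2 and 63.2 CPM in the knockout, against 332 and 292 CPM in wild type (log2 fold −2.19, SE 0.079, adjusted p = 4.2e-09). Every knockout library lay below every wild-type library. Zfp985, the neighbour whose start region is shown above, had 20.7 and 19.7 CPM in the knockout, against 122 and 101 CPM in wild type (−2.47, SE 0.085, adjusted p = 7.1e-16). Zfp979 had 50.004 and 39.9 CPM in the knockout, against 218 and 175 CPM in wild type (−2.13, SE 0.19, adjusted p = 0.0019). The knockout libraries were the low ones for each gene, and of these 3 genes Zfp979 had the largest error.

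Zfp991, a low member of the same cluster, had 0.968 and 0.578 CPM in the knockout, against 5.25 and 5.37 CPM in wild type (−2.76, SE 0.25, adjusted p = 1.4e-20). Zfp982, reported in mouse embryonic stem cells to affect expression of Nanog and other stem cell genes, had 8.46 and 7.84 CPM in the knockout, against 33.1 and 34.9 CPM in wild type (−2.06, SE 0.091). Zfp933, at the telomeric end of the cluster, had the smallest fall of the 14, with 6.73 and 5.99 CPM in the knockout, against 15.3 and 16.8 CPM in wild type (−1.33, SE 0.11). Its start region is also the odd one, at 57.1% to 61.3% identity to the other 8 matched genes of the cluster. The 28 other genes tested within the cluster's span had a median of −1.61, with 18 lower and 2 higher. They include the zinc finger genes Zfp600 (−2.52), Rex2 (−2.45) and Zfp534 (−2.21), which the symbol rule leaves out. With GC and length offsets all 14 members were still lower, with a median of −1.19.

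**Figure D2:**
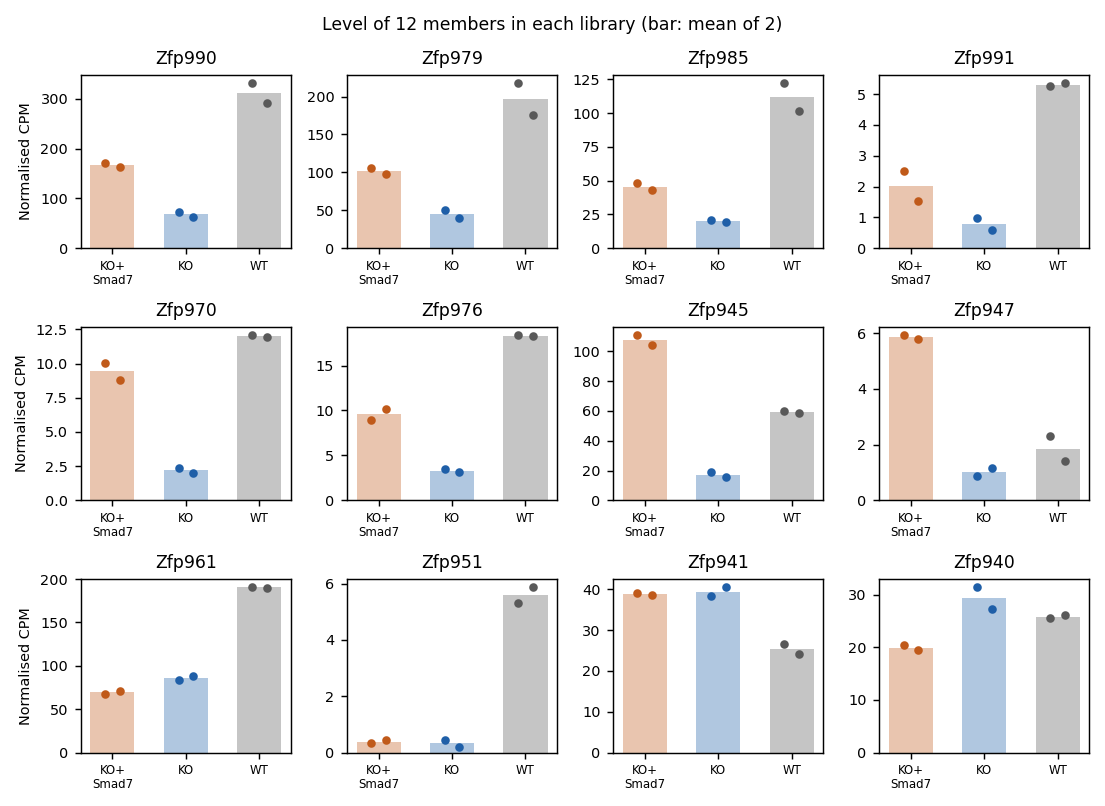
Normalised CPM (y axis, linear from 0) of 12 members in each library (points) with the mean of 2 (bars), labelled Smad7-transfected knockout, knockout and wild type from left to right. Zfp990 stands at 73.2 and 63.2 CPM in the knockout, below the libraries of both other groups, while Zfp951 stays low in both knockout groups and Zfp941 is lowest in wild type.

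In the chromosome 17 cluster all 10 members were lower in the knockout, with a median log2 fold of −1.38 (−1.78 to −0.71). Zfp945, with the highest CPM of the cluster, had 18.7 and 15.7 CPM in the knockout, against 60.04 and 58.4 CPM in wild type (−1.78, SE 0.068, adjusted p = 5.0e-54). Zfp994 had 2.09 and 2.37 CPM in the knockout, against 6.84 and 6.15 CPM in wild type (−1.54, SE 0.18). The groups did not overlap for either gene. The smallest fall was that of Zfp983, at 0.918 and 1.37 CPM in the knockout, against 2.30 and 1.45 CPM in wild type (−0.71, SE 0.29, adjusted p = 0.024). This call was lost without knockout replicate 1 (−0.45), without wild-type replicate 1 (−0.35), with the offsets (−0.24), under library size scaling (−0.57, adjusted p = 0.075) and under DESeq2 (−0.76, adjusted p = 0.17). Zfp947 likewise fell by 0.86 (SE 0.30, adjusted p = 0.0072), and its call was lost without knockout replicate 1 (−0.66), without wild-type replicate 1 (−0.47), with the offsets (−0.20) and under DESeq2 (−0.91). Of the 11 other genes tested in the span, 6 were lower and none higher, among them the zinc finger genes Zfp758 (−1.92), Zfp760 (−1.79) and Zfp229 (−1.46). Over all 13 members on chromosome 17, 13 were lower and the median was −1.24. With the offsets 10 of 13 were lower, with a median of −0.68.

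The smaller clusters on chromosomes 2 and 7 went the same way, with 4 of 4 members lower in each (medians −1.59 and −1.88). With the offsets Zfp931 on chromosome 2 turned to 0.13 and did not pass (adjusted p = 0.45), and the other 7 were still lower. Zfp970 had 2.40 and 2.00 CPM in the knockout, against 12.1 and 11.9 CPM in wild type (−2.44, SE 0.16, adjusted p = 3.7e-32). Zfp976 had 3.47 and 3.16 CPM in the knockout, against 18.4 and 18.3 CPM in wild type (−2.47, SE 0.13, adjusted p = 1.4e-40). Both genes were low in each knockout library. Zfp972, the member with the fewest reads, had 15 and 19 counts in the knockout, against 22 and 36 in wild type (−0.91, SE 0.32, adjusted p = 0.0080). Its call was lost without knockout replicate 1 (−0.73), without wild-type replicate 2 (−0.56) and under DESeq2 (−0.96).

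Zfp951, which lies alone on chromosome 5 at 104813169 to 104860070, had the largest fall of any member. It met the read rule only through its wild-type libraries (90 and 105 counts), so the rule itself favoured a fall in this gene. It had 0.459 and 0.210 CPM in the knockout, against 5.31 and 5.87 CPM in wild type (−4.03, SE 0.29, adjusted p = 2.4e-27; −3.70 with the offsets). The same gene stayed near that level in the labelled Smad7-transfected knockout, at 0.323 and 0.433 CPM. Zfp932, which with its paralogue Gm15446 is known to repress endogenous retroviruses in mouse cells, had 5.91 and 5.05 CPM in the knockout, against 18.9 and 17.8 CPM in wild type (−1.74, SE 0.11). Zfp932 shares 42.6% of its 50-base words with Gm15446 and 45.2% with other genes in all, so its counts are uncertain. Zfp961 on chromosome 8 had 84.1 and 88.4 CPM in the knockout, against 191 and 190 CPM in wild type (−1.14, SE 0.042, adjusted p = 4.6e-57), and its groups stood well apart.

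The 5 members that rose in the knockout were Zfp964, Zfp941, Zfp949, Zfp954 and Zfp940, with GC contents from 43.6% to 50.1%. Of these only Zfp964 lies in a cluster, that of 3 members on chromosome 8. Zfp964 had 3.36 and 2.58 CPM in the knockout, against 1.24 and 1.12 CPM in wild type (1.33, SE 0.26, adjusted p = 1.7e-06). Zfp941 had 38.4 and 40.5 CPM in the knockout, against 26.5 and 24.2 CPM in wild type (0.64, SE 0.069, adjusted p = 1.3e-15), and the same rise of 0.64 with the offsets. Zfp949 had 21.8 and 20.1 CPM in the knockout, against 14.9 and 14.8 CPM in wild type (0.49, SE 0.089). In these 3 genes both knockout libraries were above both wild-type libraries. Zfp954 (0.43, SE 0.11, adjusted p = 1.6e-04) lost its call under DESeq2 (0.39) and with the offsets (0.21). Zfp940 (0.18, SE 0.074, adjusted p = 0.023) lost its call without knockout replicate 1 (0.08), without wild-type replicate 1 (0.17) or replicate 2 (0.20), under RLE scaling (0.13) and under DESeq2 (0.14). The members that did not pass were Zfp974 (0.14), Zfp956 (0.11), Zfp939 (−0.02) and Zfp963 (0.32), and these log2 folds have SEs from 0.10 to 0.21.

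**Figure D3:**
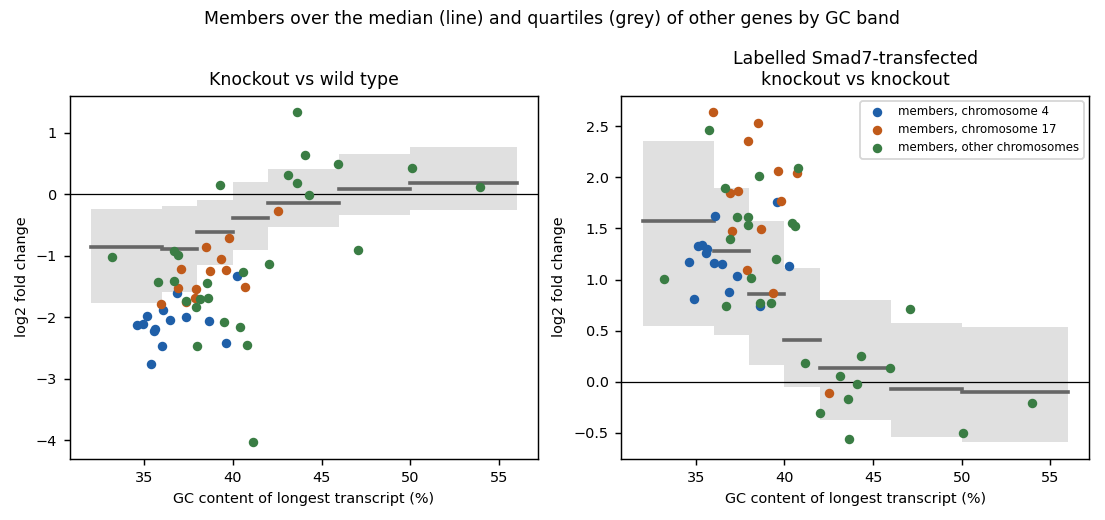
Log2 fold change (y axis) against GC content of the longest transcript in percent (x axis) for the members (points, coloured by chromosome), over the median (grey line) and quartiles (grey band) of other genes by GC band. In the left panel, knockout over wild type, the 9 members below 36% GC have a median of −2.12 against −0.86 for other genes. In the right panel, labelled Smad7-transfected knockout over knockout, they have 1.29 against 1.58.

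Setting the labelled Smad7-transfected knockout against the knockout compares, by its label, transfected with untransfected cells without lncSmad7. The samples include no mock-transfected knockout, so Smad7 and the transfection itself cannot be told apart. Of the 54 members, 43 were higher in the labelled Smad7-transfected knockout, 3 were lower and 8 did not pass, while over all genes tested 37.8% were higher and 36.8% lower. The median log2 fold was 1.19, against 0.04 for all genes. The members' CPM summed to 1307 and 1245 in the labelled Smad7-transfected knockout, against 650 and 606 in the knockout. Of the 54, 35 were higher by at least 1 on the log2 scale (18.9% of all genes) and 0 were lower by that much (6.85% of all genes). Libraries of the 2 groups did not overlap in 49 members, nor in 86.3% of all genes tested. The comparison shares the knockout libraries with that of knockout against wild type, so a member that is low in these libraries moves in opposite directions in both.

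GC content moved with this comparison as well. Other genes below 36% GC had a median log2 fold of 1.58, against 1.29 in the members there. The medians were 1.28 in other genes and 1.51 in members from 36% to 38%, 0.86 and 1.35 from 38% to 40%, 0.41 and 1.54 from 40% to 42%, and 0.13 and −0.07 from 42% to 46%. With GC and length offsets 25 members were higher, 8 were lower, and the median was 0.17, against −0.07 for all genes. Of all 17342 genes tested, 5545 were higher and 7151 lower with the offsets. Over the 54 members GC content and log2 fold had a Pearson r of −0.61 (Spearman −0.43) here and 0.61 (0.55) in knockout against wild type. These are descriptions across genes that share libraries and, within clusters, sequence. What the offsets take out as base composition and what differs between the groups in genes of low GC content cannot be told apart.

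The chromosome 17 cluster rose most in the labelled Smad7-transfected knockout. All 10 members were higher, with a median of 1.95 (1.48 to 2.64). Zfp945 had 111 and 104 CPM in the labelled Smad7-transfected knockout, against 18.7 and 15.7 CPM in the knockout (a log2 fold of 2.64, SE 0.062, with adjusted p = 5.8e-79). Zfp947 had 5.94 and 5.79 CPM in the labelled Smad7-transfected knockout, against 0.867 and 1.16 CPM in the knockout (2.53, SE 0.23, adjusted p = 1.0e-20). Both were also above their wild-type libraries. Zfp994 had 12.002 and 10.98 CPM in the labelled Smad7-transfected knockout, against 2.09 and 2.37 CPM in the knockout (2.36, SE 0.16, adjusted p = 3.0e-30). With the offsets the rises of these genes were 1.21, 1.71 and 1.31, and each still passed. Of the 11 other genes tested in the span 10 were higher, including Zfp758 (2.29) and Zfp760 (2.18). With the offsets 10 of all 13 members on the chromosome were higher and 1 was lower, with a median of 0.86. The cluster of 10 then had a median of 1.13, with all 10 higher. The chromosome 2 cluster had nearly the same median with the offsets, 1.06, with 3 of 4 members higher and 1 lower.

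The chromosome 4 cluster also rose without offsets, 14 of 14 members with a median of 1.17 (0.74 to 1.76), but with the offsets only 3 were higher and 1 lower, with a median of 0.05. Zfp990 had 171 and 164 CPM in the labelled Smad7-transfected knockout, against 73.2 and 63.2 CPM in the knockout (1.29, SE 0.083, adjusted p = 3.8e-07). Zfp985 had 48.0 and 43.1 CPM in the labelled Smad7-transfected knockout, against 20.7 and 19.7 CPM in the knockout (1.17, SE 0.098, adjusted p = 1.7e-09). With the offsets these values were 0.07 (adjusted p = 0.12) and −0.0016 (adjusted p = 0.99), so neither passed. Zfp979 had 106 and 97.5 CPM in the labelled Smad7-transfected knockout, against 50.004 and 39.9 CPM in the knockout (1.17, SE 0.20, adjusted p = 0.012). Its call was lost without replicate 1 of the labelled Smad7-transfected knockout (adjusted p = 0.061) or without replicate 2 (0.052), and with the offsets the value turned to −0.17 (adjusted p = 0.31). The members that rose with the offsets as well were Zfp978 (1.32), Zfp933 (0.49) and Zfp980 (0.40). Zfp978 had 18.6 and 17.7 CPM in the labelled Smad7-transfected knockout, against 5.15 and 5.57 CPM in the knockout. These 3 were singled out after their values were seen.

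**Figure D4:**
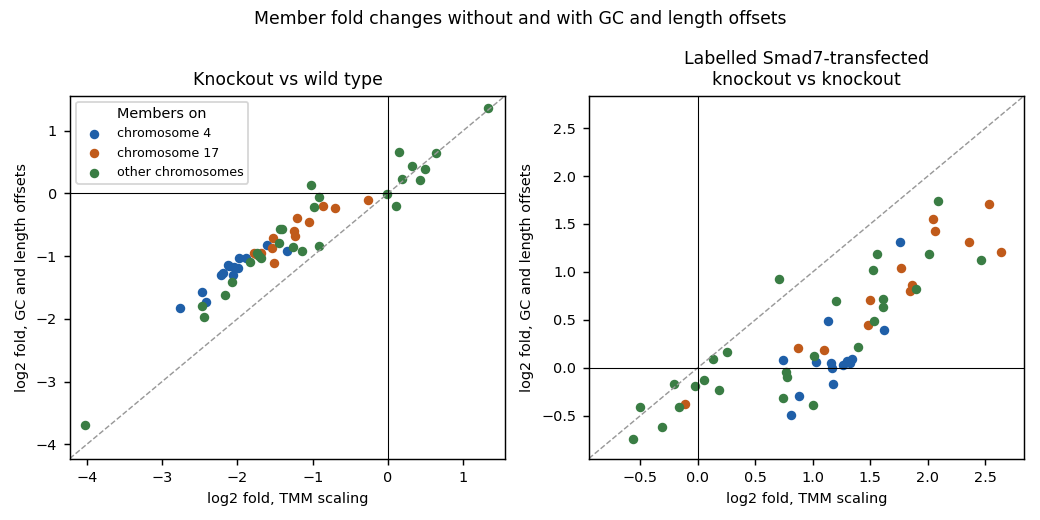
Member log2 fold changes with GC and length offsets (y axis) against those under TMM scaling alone (x axis), knockout over wild type on the left and labelled Smad7-transfected knockout over knockout on the right, with the diagonal dashed. In the right panel the chromosome 4 members lie around 0 on the y axis (median 0.05), while most chromosome 17 members stay above it (median 0.86).

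Outside these clusters Zfp950 on chromosome 19 had 20.6 and 23.0 CPM in the labelled Smad7-transfected knockout, against 4.64 and 3.26 CPM in the knockout (2.46, SE 0.12, adjusted p = 1.1e-41; 1.12 with the offsets). Zfp970 on chromosome 2 had 10.1 and 8.82 CPM in the labelled Smad7-transfected knockout, against 2.40 and 2.00 CPM in the knockout (2.09, SE 0.16; 1.74 with the offsets). Both genes were high in each labelled Smad7-transfected library. The 4 members of the chromosome 2 cluster and the 4 of the chromosome 7 cluster were all higher, with medians of 1.28 and 1.37. With the offsets Zfp931 was lower (−0.39, adjusted p = 0.017), Zfp936 did not pass (−0.05, adjusted p = 0.45) and the other 6 were still higher. Zfp972 passed narrowly (0.71, SE 0.33, adjusted p = 0.047), and its call was lost without either knockout library, without replicate 2 of the labelled Smad7-transfected knockout, without either wild-type library, without the filter on low counts and under DESeq2 (adjusted p from 0.052 to 0.34).

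The 3 members that were lower in the labelled Smad7-transfected knockout were Zfp940, Zfp954 and Zfp961. Zfp940 had 20.4 and 19.5 CPM in the labelled Smad7-transfected knockout, against 31.4 and 27.2 CPM in the knockout (−0.56, SE 0.079, adjusted p = 1.5e-10). Zfp954 had 8.78 and 11.4 CPM in the labelled Smad7-transfected knockout, against 14.5 and 14.4 CPM in the knockout (−0.51, SE 0.11, adjusted p = 1.2e-05). Both had been slightly higher in the knockout than in wild type. Zfp961 had 68.0 and 70.9 CPM in the labelled Smad7-transfected knockout, against 84.1 and 88.4 CPM in the knockout (−0.31, SE 0.048, adjusted p = 3.8e-09), and the groups did not overlap. This fall lost its call under library size scaling (−0.06, adjusted p = 0.23). Zfp951 (0.18, SE 0.57) and Zfp952 (−0.12, SE 0.11) fell in the knockout and did not pass here. Zfp964 (−0.17), Zfp941 (−0.02), Zfp949 (0.13), Zfp956 (−0.21), Zfp939 (0.25) and Zfp963 (0.05) also did not pass.

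Against wild type, the labelled Smad7-transfected knockout had 16 members higher, 25 lower and 13 that did not pass, beside 43.1% of all genes higher and 38.8% lower. The median was −0.19, against 0.09 for all genes. Under library size scaling the median of all genes moved to 0.48 and that of the members to 0.20, so the members' sign turned while their distance from all genes stayed at −0.28. In the other comparisons that scaling moved the median of all genes to 0.17 (knockout against wild type) and 0.29, and the members' distance from it stayed at −1.54 and 1.15. By at least 1 on the log2 scale 4 members were higher (27.4% of all genes) and 6 lower (15.6%). Libraries did not overlap in 46 members, a smaller share of the 54 than the 89.9% of all genes tested. With the offsets 13 were higher and 30 lower, with a median of −0.35 against −0.13 for all genes. Of all 17342 genes tested, 6382 were higher and 7796 lower with the offsets.

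On chromosome 4 the members summed to 506 and 474 CPM in the labelled Smad7-transfected knockout and 221 and 192 CPM in the knockout, against 976 and 854 CPM in wild type. Of the 14, 13 were lower than in wild type and Zfp933 did not pass (median −0.93), and with the offsets 14 were lower (−1.17). The 13 chromosome 17 members summed to 278 and 260 CPM in the labelled Smad7-transfected knockout and 74.0 and 72.8 CPM in the knockout, against 196 and 190 CPM in wild type. Of these 13, 8 were higher than in wild type and 2 lower (median 0.31), and with the offsets 6 were higher and 3 lower (0.11). In the cluster of 10, 8 were higher than in wild type and Zfp942 and Zfp943 did not pass (median 0.68), and with the offsets 6 of the 10 were higher and none lower (0.35). The highest rises over wild type were those of Zfp947 (1.67, SE 0.20, adjusted p = 2.2e-13), Zfp964 (1.17, SE 0.27) and Zfp983 (1.06, SE 0.22). The greatest falls were those of Zfp951 (−3.85, SE 0.30), Zfp961 (−1.45, SE 0.044) and Zfp991 (−1.42, SE 0.21). Of these, Zfp951 met the read rule only through its wild-type libraries. The difference between the clusters was not tested.

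Many members share sequence with other genes, and the sources used here do not say how the authors' counting treated shared reads. A median of 15.5% of a member's 50-base words occurred in another gene's transcripts, from 0 in Zfp961 to 93.1% in Zfp987. Counts of single genes with much shared sequence are uncertain for this reason. They include many on chromosome 4 and Zfp970 on chromosome 2 (57.2% shared, 43.2% with Gm14288). In the 18 members that shared under 5%, 12 were lower and 5 higher in the knockout than in wild type (median −1.18), and 9 were higher and 3 lower in the labelled Smad7-transfected knockout than in the knockout (0.46). In the 27 that shared 5% to under 50%, 24 were lower and none higher in the knockout (−1.44), and 25 were higher in the labelled Smad7-transfected knockout (1.29). In the 9 that shared at least 50%, all were lower (−2.04) and then higher (1.33). Beside these counts, 33.3% of all genes tested were lower and 34.5% higher in the knockout than in wild type. In the labelled Smad7-transfected knockout 37.8% of all genes were higher and 36.8% lower than in the knockout. Zfp945, Zfp961, Zfp951, Zfp950, Zfp930 and Zfp933 are among those under 5%. Zfp993 lay just outside the read rule, with 1 and 6 counts in the labelled Smad7-transfected knockout, 5 and 8 in the knockout, and 10 and 8 in wild type. Zfp972 lay just inside, with 19 and 30, 15 and 19, and 22 and 36 counts. The other 9 symbols that missed the rule were Zfp935, Zfp957, Zfp965, Zfp966, Zfp967, Zfp968, Zfp969, Zfp973 and Zfp986, with at most 12 counts over the 6 libraries.

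The partners of KRAB zinc finger proteins were followed with a list of 33 corepressor and heterochromatin genes. The list too was chosen with earlier results of these data known. In the knockout 23 were lower than in wild type and 8 higher (median −0.42), beside 33.3% and 34.5% of all genes tested. In the labelled Smad7-transfected knockout 20 were lower than in the knockout and 9 higher (−0.38), beside 36.8% and 37.8%. There 28 were lower than in wild type and 2 higher (−0.67), beside 38.8% and 43.1%. With GC and length offsets 27 were lower and 2 higher in the knockout than in wild type (−0.54). Of all 17342 genes, 6724 were then lower and 4993 higher. In the labelled Smad7-transfected knockout 24 were lower and 7 higher than in the knockout with the offsets (−0.51), beside 7151 and 5545 of all genes. Trim28, the corepressor that the KRAB domain binds, had 864 and 876 CPM in the labelled Smad7-transfected knockout and 2333 and 2342 CPM in the knockout, against 3254 and 3219 CPM in wild type. It fell by 0.47 (SE 0.033, adjusted p = 4.8e-28) in the knockout against wild type and by 1.43 (SE 0.034, adjusted p = 4.3e-80) in the labelled Smad7-transfected knockout against the knockout. Trim28 was thus lowest in the labelled Smad7-transfected knockout, where the members' summed CPM stood above that of the knockout. Setdb1, the methyltransferase that Trim28 recruits, did not pass in knockout against wild type (−0.03, SE 0.037) and was lower in the labelled Smad7-transfected knockout than in the knockout (−0.64, SE 0.039). With the offsets Trim28, a gene of 59.6% GC, fell by 0.82 and by 1.45 in these comparisons, and Setdb1 passed in each (−0.29 and −0.80).

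Some other partners were lower in the knockout and higher in the labelled Smad7-transfected knockout. Atrx, a chromatin remodeller found at zinc finger gene clusters, was lower in the knockout than in wild type (−2.34, SE 0.039) and higher in the labelled Smad7-transfected knockout than in the knockout (2.21, SE 0.039). With the offsets these values of Atrx (39.5% GC) were −1.82 and 1.12. Resf1, a Setdb1 partner in the silencing of endogenous retroviruses, had −2.24 and 1.41 (−2.00 and 0.79 with the offsets). Tasor and Mphosph8, subunits of the HUSH silencing complex, had −1.52 and 1.55 and −1.03 and 0.63, and Atf7ip2, a relative of the Setdb1 cofactor Atf7ip, had −1.54 and 1.44. No GC value was matched to Tasor, so the offsets do not bear on it. The HP1 genes were all lower in the knockout, Cbx3 (−1.52), Cbx1 (−0.68) and Cbx5 (−0.51), as were the Trim28-binding remodeller Smarcad1 (−1.45) and the third HUSH subunit Pphln1 (−1.02). Against the knockout, Cbx1 (−0.76), Cbx5 (−0.26) and Pphln1 (−0.25) were lower again in the labelled Smad7-transfected knockout. Cbx3 and Smarcad1 were higher there (0.23 each), but lower with the offsets (−0.56 and −0.37). Among single zinc finger repressors, Zfp809, which silences murine leukaemia virus, fell by 0.84 in the knockout, Zfp568 fell by 0.59 and Zfp57, a guardian of imprints, fell by 0.19. Zfp42 (Rex1), a marker of embryonic stem cells, was higher in the knockout than in wild type (0.33). Dnmt1 (0.25), Uhrf1 (0.40), Kdm1a (0.29), Ehmt2 (0.25), Chd3 (0.40), Pias4 (0.21) and Suv39h1 (0.17) made up the other 7 that rose. With the offsets Dnmt1 (−0.13), Ehmt2 (−0.13) and Pias4 (−0.14) were lower, Chd3 (0.02), Kdm1a (−0.01) and Suv39h1 (−0.08) did not pass, and Uhrf1 (0.07) and Zfp42 (0.27) were higher.

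**Figure D5:**
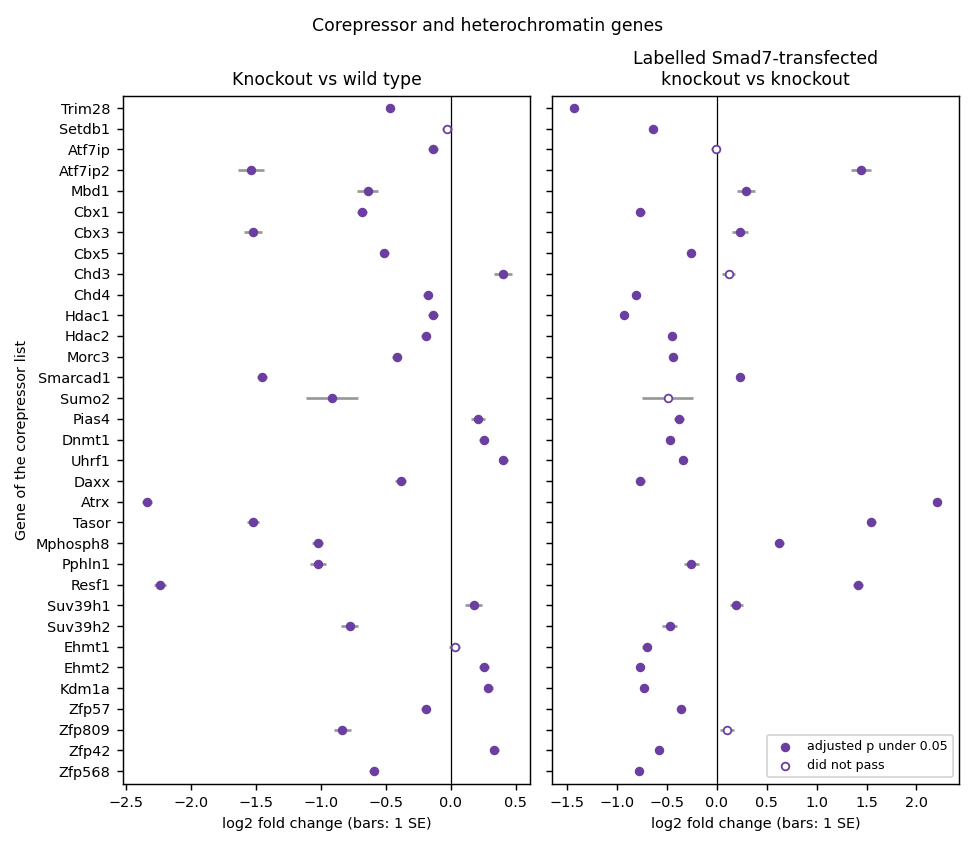
Log2 fold changes (x axis, bars 1 SE) of the 33 corepressor and heterochromatin genes (y axis), knockout over wild type on the left and labelled Smad7-transfected knockout over knockout on the right; filled points passed adjusted p under 0.05. Trim28, at the top, lies at −0.47 and −1.43, and Atrx lies furthest out at −2.34 and 2.21.

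Sumo2 (−0.92), Suv39h2 (−0.78), Mbd1 (−0.64), Morc3 (−0.42) and Daxx (−0.39), the histone chaperone that works with Atrx, were lower than in wild type. The deacetylases Hdac2 (−0.19) and Hdac1 (−0.14), the nucleosome remodeller Chd4 (−0.18) and Atf7ip (−0.14) fell by less than 0.2. Ehmt1 (0.03) did not pass. With the offsets Chd4 (−0.54), Hdac1 (−0.36), Atf7ip (−0.35) and Ehmt1 (−0.32) were lower in the knockout than in wild type, and Hdac2 (0.04, adjusted p = 0.25) did not pass. In the labelled Smad7-transfected knockout Hdac1 (−0.93), Chd4 (−0.80), Cbx1 (−0.76), Daxx (−0.76), Zfp568 (−0.77), Ehmt2 (−0.77), Kdm1a (−0.73) and Ehmt1 (−0.70) were all lower than in the knockout.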

How the data were processed

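Libraries of poly(A) RNA from mouse embryonic stem cells were made with a TruSeq kit and sequenced, per the labels' protocols. The authors deposited raw read counts per gene symbol. The submitters' processing notes name STAR and featureCounts 1.6.3 with no role or order. Annotation release, strand setting and treatment of shared reads: not given in the sources used here. Of the table, 6 columns were used. The other 2 columns of per-sample values could not be matched to labels, the knockout transfected with lncSmad7 is not analysed here, and the fit planned over all matched libraries covers 6 libraries in 3 groups.

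Genes were filtered with filterByExpr (17342 left), scaled with TMM and tested with edgeR's quasi-likelihood test, robust, with 3 residual degrees of freedom (edgeR 4.0.16, limma 3.58.1, R 4.3.3). The biological coefficient of variation was 2.47%. P-values were adjusted by Benjamini and Hochberg's method over every tested gene, and 0.05 was the threshold. Replicate counts differed by more than sampling noise (chi-square per degree of freedom of 2 for labelled Smad7-transfected knockout, 1.81 for knockout and 1.64 for wild type), so none was taken for a repeat deposit. Alternatives were RLE and library size scaling, DESeq2 1.42.0, 2 other count filters, only the 4 libraries compared, a replicate block, each replicate left out, a log2 fold of at least 1, and GC and length offsets (mgcv 1.9.3, values for 97.85% of genes).

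Positions, exon lengths and GC content came from GENCODE M21 (GRCm38) by symbol, from the longest transcript. Start regions came from RefSeq (GRCm38.p6) and were aligned with Biopython 1.88. The members and lists were chosen with earlier results of these data known. Members were named for the largest changes among those whose libraries do not overlap (5 each way in the main comparisons, 3 each way against wild type), the 4 highest levels per length and the 4 lowest counts, plus the corepressor list, of which some genes are not reported here. Others named were chosen after their values were seen.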

Additional observations from a re-analysis of the deposited data

How the results depend on the processing

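Of 794 values of named members under alternatives, 749 kept their side of the threshold without a reversal, 36 lost the threshold, 3 gained it and 6 reversed. A reversal was a change of sign in a value that passed in at least 1 of the fits compared. Sign changes of values that passed in neither fit are thus among the 749. Zfp951 in labelled Smad7-transfected knockout against knockout (0.18, and −0.24 with the offsets) is such a value. With GC and length offsets Zfp985 (−0.0016) and Zfp979 (−0.17) reversed in labelled Smad7-transfected knockout against knockout, where the counts became 25 members higher and 8 lower, 3 and 1 on chromosome 4, and 1 lower on chromosome 17. Under library size scaling Zfp941 reversed in that comparison (0.23), as did Zfp970 (0.039), Zfp954 (0.32) and Zfp940 (0.016) against wild type, where 26 members were higher and 0 on chromosome 17 lower. The share of higher calls among all genes was then 61.7%, against 50.9% with TMM (knockout against wild type), 65.7% against 50.7% (labelled Smad7-transfected knockout against knockout) and 68.3% against 52.6% (against wild type). DESeq2 called 3 members higher in knockout against wild type. At a log2 fold of at least 1, 1 was higher there, 0 were lower in labelled Smad7-transfected knockout against knockout, and against wild type 4 were higher and 6 lower, with 4 lower on chromosome 4, and 2 higher and 0 lower on chromosome 17. The cause was not tested.

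Leaving out each library gave 42 to 45 members lower and 4 to 6 higher in knockout against wild type, 41 to 42 higher and 3 to 4 lower in labelled Smad7-transfected knockout against knockout, and 15 to 16 higher and 23 to 27 lower against wild type. A lone remaining library is then assumed to vary like the other groups. With a replicate block the counts were 45 lower and 5 higher, 42 higher and 3 lower, and 16 higher and 26 lower, and Zfp972 lost its rise (adjusted p = 0.052). Replicates with the same number did not deviate together across genes (correlations of 0.0057, 0.0053 and 0.026). No shared shift was thus seen, which cannot show whether libraries of the same number were handled together. Low counts limit Zfp972, Zfp951, Zfp983 and Zfp964.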

Other observations

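Zinc finger genes outside the symbols Zfp900 to Zfp999 were counted in the same way. Of 217 other tested genes with at least 5 copies of the linker stretch in their longest transcript, 152 were lower and 34 higher in the knockout than in wild type (median log2 fold −0.98). In the labelled Smad7-transfected knockout 146 were higher and 28 lower than in the knockout (0.99), and 64 were higher and 83 lower than in wild type (−0.09). With GC and length offsets 135 were lower and 29 higher in the knockout (−0.56), and 103 were higher and 41 lower in the labelled Smad7-transfected knockout than in the knockout (0.33). Over all genes tested 33.3% were lower and 34.5% higher in the knockout than in wild type. In the labelled Smad7-transfected knockout 37.8% were higher and 36.8% lower than in the knockout, and 43.1% higher and 38.8% lower than in wild type. The linker class was chosen after the member results were seen. The 292 other tested genes with a numbered Zfp symbol, many without an array of such linkers, had medians nearer 0, at −0.20 and 0.07, with 135 lower and 85 higher in the knockout and then 125 higher and 100 lower.

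The share of the members' CPM held by the 4 most abundant was 34.97% in the labelled Smad7-transfected knockout (Zfp990, Zfp945, Zfp979 and Zfp961) and 38.02% in the knockout (Zfp961, Zfp990, Zfp979 and Zfp941), against 44.7% in wild type (Zfp990, Zfp979, Zfp961 and Zfp985). Over the 54 members, the number of linker stretches had a Pearson r of −0.53 (Spearman −0.56) with the log2 fold of knockout over wild type and 0.28 (0.27) with that of labelled Smad7-transfected knockout over knockout, a description across genes that share libraries, sequence and base composition.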
